A study of Homo sapiens with 6 samples.

Results

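The RNA of SRF and of 9 genes of the contractile actin cytoskeleton (ACTA2, ACTG2, TAGLN, CNN1, CALD1, TPM1, TPM2, MYL9 and MYH9) was followed in control and FAM60A-knockout HEK293 cells. The genes were given as a list of symbols, and each of the 10 was matched to 1 Ensembl gene among the 62754 of the deposited table. HEK293 is a transformed line of human embryonic kidney origin. The titles of the samples say HEK293, whereas their cell line tag says HEK293T, a derivative of that line that carries the SV40 large T antigen. Every library was made from poly(A) RNA of cells grown in serum-containing medium. Apart from the transfection and puromycin selection described below, the study's methods name no agent added to the sequenced cells. The 3 control libraries are labelled only as control, and the sources do not say whether those cells received a vector or puromycin. The 3 knockout libraries came from cells transfected with Cas9 and several guide RNAs against 3 regions of FAM60A and then selected with puromycin. They are a selected pool and not a clone, so each library can hold cells with different alleles. No label says that the libraries of a group came from separate cultures, and the p-values below therefore measure the spread between these libraries only, which may be technical. Total counts lay between 88361827 and 93346824 per library. Replicates are called controls 1 to 3 and knockouts 1 to 3 below.

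SRF is a transcription factor that binds CArG boxes in the promoters of actin and actin-binding genes and of growth factor-inducible genes. Its activity on the cytoskeletal genes is set by the MRTF cofactors, which are held in the cytoplasm by monomeric actin and released when actin polymerises. Many of the genes on the list are best known from smooth muscle, where their products build and tune the contractile filaments, but several also serve stress fibres and the cell cortex in other cells. In actin filaments, tropomyosins lie along the groove, caldesmon, calponin and transgelin bind the side, and myosin II, made of heavy chains such as MYH9 and regulatory light chains such as MYL9, pulls.

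The targeted gene was examined first. FAM60A, listed under its current symbol SINHCAF (ENSG00000139146), encodes a subunit of the Sin3/HDAC co-repressor and had 11028, 10165 and 12792 counts in controls 1, 2 and 3. Knockouts 1, 2 and 3 had 5684, 5793 and 5449, so the groups did not overlap and the RNA fell without being lost (log2 fold change -0.85 with a standard error, SE, of 0.11, edgeR adjusted p = 0.00863). Over 14 alternative settings, the edgeR, DESeq2 or limma adjusted p ran from 7.73e-09 to 0.0736. These counts measure RNA and not protein. The study checked the knockout by immunoblot of the protein and by qRT-PCR.

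Control 3 stood apart from the other controls and is therefore also described separately. In 1476 genes its level was at least 4-fold away from that in control 1, and in 1446 genes from that in control 2, whereas controls 1 and 2 were that far apart in 7 genes and pairs of knockout libraries in 9 to 14. For FAM60A itself control 3 was the highest of the 6 libraries, so the targeted gene did not go against its label. Every comparison below was fitted once with all 6 libraries and once without control 3.

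All 10 genes had lower mean normalized counts in knockout than in control cells, by between 1.17-fold for ACTA2 and SRF and 14.3-fold for CNN1, and for MYL9 the knockout libraries were at the floor of detection. Counts were normalized by edgeR's TMM method and are given as CPM, that is, rescaled to equal library sizes. With all 6 libraries, 9 of the 10 genes had enough counts to be tested, and 3 of them were lower in the knockout at an adjusted p of at most 0.05 in edgeR's quasi-likelihood test: ACTG2, CNN1 and TPM2. Over all 20992 genes tested, 8.67% were called lower and 7.96% higher. The median log2 fold change of the 9 genes was -1.02, and that of all tested genes was -0.01. The same 3 genes were also changed by at least 1 on the log2 scale, a rule that called 3.72% of all tested genes lower. No gene of the list was higher by edgeR, DESeq2 or limma-voom, and none had a fitted fold change above 0. The groups did not overlap for 5 of the 10 genes (ACTG2, CNN1, CALD1, TPM1 and TPM2), as was the case, in the same direction, for 20.1% of all tested genes. When control 3 was left out, all 10 genes could be tested and 9 were called lower, ACTA2 being the exception, against 33.2% of 21686 genes. With a change of at least 1 on the log2 scale there were 8 calls, against 9.75% of all tested genes. The median log2 fold change of the 10 genes was then -1.42, also with MYL9 at its bound, and that of all tested genes was -0.0024. In contrast, leaving out control 1 or 2 or any single knockout left 0 of the genes called. In these fits 0.256% to 2.59% of all tested genes were called lower and 0.507% to 2.29% higher, so that 0 of the listed genes is near the share of all genes. ACTG2 passed the filter on low counts through the control libraries alone, and so did MYL9 in the fit without control 3, so that these genes had to differ in order to be tested. In libraries of whole cultures, fewer cells with an RNA and less of that RNA per cell cannot be told apart.

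**Figure D1:**
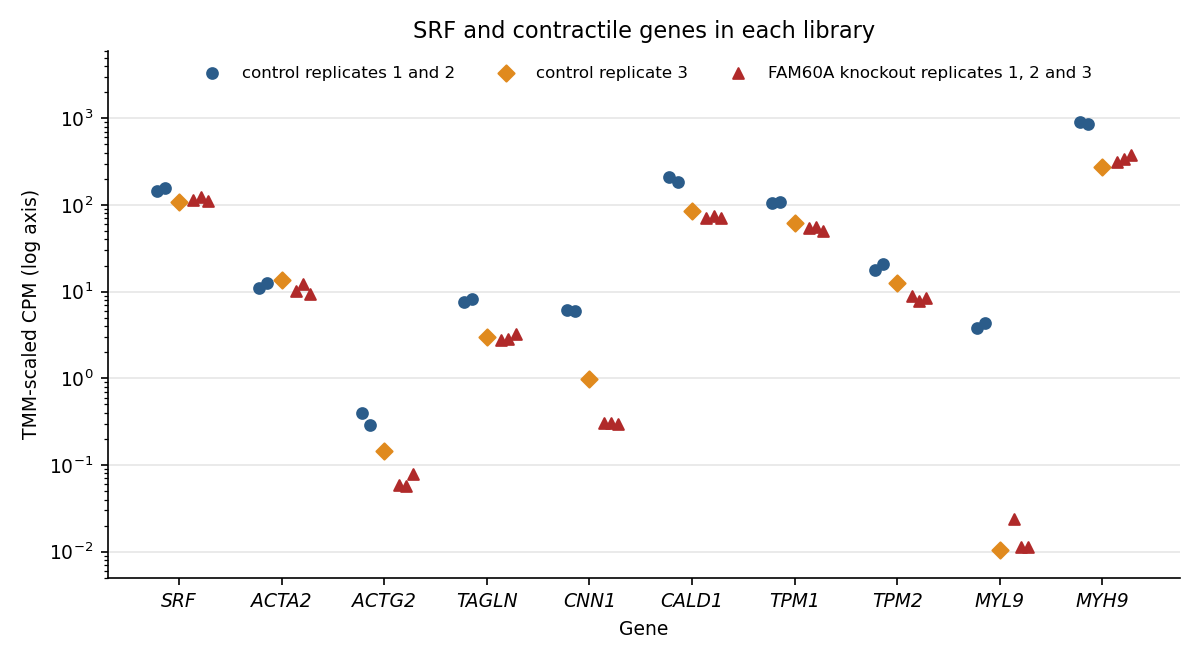
TMM-scaled CPM on a log axis for SRF and the 9 contractile genes in each library, with controls 1 and 2 as circles, control 3 as a diamond and the 3 FAM60A-knockout libraries as triangles. Control 3 sits at or near the knockout libraries for SRF, TAGLN, CALD1, TPM1, MYL9 and MYH9, between the groups for ACTG2, CNN1 and TPM2, and with the controls for ACTA2.

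SRF (ENSG00000112658), the transcription factor itself, lies on chromosome 6 of GRCh38 from 43171269 to 43181506. The RefSeq promoter windows, which run from 250 bases before to 50 bases after an annotated start, were searched for CArG boxes, that is, CC, then 6 bases that are each A or T, then GG, on both strands. Windows were found for 8 of the 10 genes; TAGLN and MYL9 were not matched. These 8 genes had 14 windows, and 2 of them, of SRF and ACTG2, held CArG boxes, against 1.29% of all 35116 windows of this length. The stretch that ends at the start of SRF is shown because 2 boxes stand side by side in it, at chr6:43171227-43171268 on the plus strand, with the boxes in capitals.
SRF: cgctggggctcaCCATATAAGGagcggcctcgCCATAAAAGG
In these libraries SRF was among the least changed genes of the list. It had 13995 and 14931 counts in controls 1 and 2, 10539 in control 3, and 9539, 10934 and 9833 in knockouts 1, 2 and 3. In CPM control 3 was the lowest of the 6 libraries, and the groups overlapped. Mean CPM was 136 ± 24.1 in control and 116 ± 7.18 in knockout cells (SD, n = 3 each). SRF had a log2 fold change of -0.23 (SE 0.15, edgeR adjusted p = 0.32). It was called in 1 of 14 alternatives, the fit without control 3, with -0.39 (SE 0.08) and an edgeR adjusted p of 0.000149, and the highest adjusted p among them was 0.663.

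Of the 2 smooth muscle actins on the list, ACTG2 passed the edgeR test and ACTA2 did not, and the difference between them was not itself tested. ACTG2 had passed the filter through the control libraries alone, so it had to differ in order to be tested. ACTA2 (ENSG00000107796, chromosome 10, 88935074 to 88991337) encodes the alpha actin of vascular smooth muscle and ACTG2 (ENSG00000163017, chromosome 2, 73893008 to 73919865) the gamma actin of visceral smooth muscle. Parts of their promoters are shown because they hold the sites that SRF is known to bind. ACTG2 holds 2 CArG boxes between positions -122 and -52 from its start, at chr2:73892886-73892956 on the plus strand. ACTA2 holds 2 boxes in which 1 of the 6 core bases is G or C, at chr10:88952823-88952906 on the minus strand, between positions -133 and -50 from an annotated start inside the span of the gene. Boxes with 1 such base were found in 6.94% of all windows. Capitals mark the boxes in both sequences, which read 5′ to 3′ along the gene.
ACTG2: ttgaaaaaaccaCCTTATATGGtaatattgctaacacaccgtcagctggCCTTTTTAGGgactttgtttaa
ACTA2: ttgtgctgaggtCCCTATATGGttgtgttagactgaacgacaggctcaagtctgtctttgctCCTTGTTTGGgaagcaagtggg
ACTG2 was barely expressed, with 39 and 28 counts in controls 1 and 2, 14 in control 3, and 5, 5 and 7 in knockouts 1, 2 and 3. Every knockout library was below every control library, and control 3 was the lowest control. Expression fell from 0.279 ± 0.129 to 0.0652 ± 0.0122 CPM (SD, n = 3 each), with a log2 fold change of -2.07 (SE 0.46, edgeR adjusted p = 0.0317). The call was held without control 3 (log2 fold change -2.41). It was lost when any other single library was left out and with a block for replicate number. Over 13 alternatives the adjusted p ran from 1.11e-05 to 0.145. ACTA2 had 1072 and 1202 counts in controls 1 and 2, 1323 in control 3, and 857, 1080 and 828 in knockouts 1, 2 and 3. Here control 3 was the highest library, and knockout 2 lay above control 1 in CPM. Mean CPM was 12.4 ± 1.34 in control and 10.6 ± 1.52 in knockout cells (SD, n = 3 each). The difference was within the spread of the libraries (log2 fold change -0.22, SE 0.16, edgeR adjusted p = 0.372). None of 14 alternatives called ACTA2, the adjusted p running from 0.139 to 0.716. Reads of ACTA2 may be shared with STAMBPL1 and FAS, which overlap it on the opposite strand and had 1794 to 2431 and 1657 to 3193 counts per library, since it is not stated whether strand was used in counting.

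Of the 3 actin-binding proteins, CNN1 was called lower by edgeR with all libraries and TAGLN and CALD1 were not, whereas DESeq2 called all 3. Transgelin, encoded by TAGLN (ENSG00000149591, chromosome 11, 117199294 to 117207465), cross-links actin filaments and is an early marker of smooth muscle. It was counted 739 and 780 times in controls 1 and 2, 293 times in control 3, and 233, 251 and 288 times in knockouts 1, 2 and 3. Control 3 was nearly level with knockout 3, and in CPM it lay inside the knockout range. Mean CPM was 6.25 ± 2.80 in control and 2.96 ± 0.263 in knockout cells (SD, n = 3 each), and the log2 fold change of -1.08 (SE 0.38) had an edgeR adjusted p of 0.0984. Leaving out control 3 gave -1.44, and over 14 alternatives the adjusted p ran from 2.22e-10 in that fit to 0.275, DESeq2 giving 0.0258. Of the 100-base stretches of the longest TAGLN transcript, 65.1% also occur in ENSG00000280143, an overlapping same-strand entry with 6 to 13 counts per library, so the split of reads between them is uncertain. PCSK7 overlaps TAGLN on the opposite strand and had 1710 to 2645 counts per library, and with the use of strand not stated its reads may be shared as well.

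Calponin 1, encoded by CNN1 (ENSG00000130176, chromosome 19, 11538851 to 11550323), binds actin and restrains the myosin ATPase in smooth muscle. Of the 9 genes tested with all libraries it had the largest fold change. It had 590 and 577 counts in controls 1 and 2, 96 in control 3, and 26, 27 and 26 in knockouts 1, 2 and 3. The knockout libraries were nearly equal, and control 3 stood between the groups, 6.08-fold below the mean CPM of the other controls and 3.27-fold above that of the knockout. Expression fell from 4.36 ± 2.91 to 0.304 ± 0.00799 CPM (SD, n = 3 each), a log2 fold change of -3.84 (SE 0.70, edgeR adjusted p = 0.0192). The fit without control 3 gave -4.34 (SE 0.15). The call was lost when any other library was left out, with limma-voom and with a block for replicate number. Over 14 alternatives the adjusted p ran from 4.53e-16 to 0.109.

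Caldesmon, encoded by CALD1 (ENSG00000122786, chromosome 7, 134711499 to 134970729), links actin to myosin and stabilises filaments, and it is made in a short form in non-muscle cells. Its window holds 1 box with a G in the core, shown in capitals at chr7:134711461-134711494 on the plus strand, between positions -38 and -5 from the start.
CALD1: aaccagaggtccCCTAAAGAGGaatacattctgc
CALD1 was abundant, with 20516 and 17888 counts in controls 1 and 2, 8220 in control 3, and 5899, 6468 and 6176 in knockouts 1, 2 and 3. Control 3 was above every knockout library but much nearer to them than to the other controls. Mean CPM was 161 ± 66.7 in control and 71.2 ± 2.16 in knockout cells (SD, n = 3 each). CALD1 had a log2 fold change of -1.17 (SE 0.32, edgeR adjusted p = 0.053). It was -1.51 (SE 0.08) without control 3, and over 14 alternatives the adjusted p ran from 3.31e-13 to 0.186. The 4 calls among them came without control 3, with DESeq2 (0.00475), without TMM factors and without a filter (0.0485).

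Both tropomyosin genes of the list were lower in every knockout library than in any control. TPM1 (ENSG00000140416, chromosome 15, 63042747 to 63071915) had 10217 and 10278 counts in controls 1 and 2, 6000 in control 3, and 4524, 4830 and 4384 in knockouts 1, 2 and 3. Mean CPM was 91.4 ± 25.4 in control and 52.8 ± 2.82 in knockout cells (SD, n = 3 each). For TPM1 the log2 fold change of -0.79 (SE 0.21) had an edgeR adjusted p of 0.0519, just above the threshold. Leaving out control 3 gave -1.04, and over 14 alternatives the adjusted p ran from 8.19e-11 to 0.187, DESeq2 giving 0.0121. TPM2 (ENSG00000198467, chromosome 9, 35681993 to 35690056), the beta tropomyosin gene, had 1730 and 1993 counts in controls 1 and 2, 1201 in control 3, and 749, 684 and 746 in knockouts 1, 2 and 3. Control 3 stood midway, 1.55-fold below the other controls and 1.48-fold above the knockout mean in CPM. TPM2 fell from 17.0 ± 4.22 to 8.38 ± 0.552 CPM (SD, n = 3 each), a log2 fold change of -1.02 (SE 0.21, edgeR adjusted p = 0.0254). In the fit without control 3 it was -1.23. The call was lost without any other single library and with a block for replicate number. Over 14 alternatives the adjusted p ran from 1.68e-10 to 0.121.

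MYL9 was not tested and MYH9 not called in the edgeR fit of all libraries, and both were called without control 3. MYL9 (ENSG00000101335, chromosome 20, 36541519 to 36551447) encodes the regulatory light chain of smooth muscle and non-muscle myosin II, the subunit whose phosphorylation switches contraction on. It had 373 and 418 counts in controls 1 and 2, 1 count in control 3, and 2, 1 and 1 in knockouts 1, 2 and 3. Control 3 was thus at the level of the knockout, and far from the other controls. With 3 counts per library taken as the floor, which covers counting error only, MYL9 was at least 115-fold lower in the knockout than in controls 1 and 2, and at least 76.7-fold lower than the mean of the 3 controls. MYL9 was left out of the fit of all 6 libraries by the filter, having enough counts in 2 libraries only. It was called lower without control 3 (edgeR adjusted p = 4.56e-16) and, with all 6 libraries, by DESeq2 (adjusted p = 1.98e-06) and by edgeR without a filter (adjusted p = 0.037). Over the 6 alternatives that tested MYL9 the adjusted p ran from 4.56e-16 to 0.178. MYH9 (ENSG00000100345, chromosome 22, 36281280 to 36387967), the heavy chain of non-muscle myosin IIA, was the gene of the list with the most counts in every library. It was counted 87829 and 82115 times in controls 1 and 2, 26313 times in control 3, and 26434, 29358 and 32980 times in knockouts 1, 2 and 3. Control 3 was the lowest of all 6 libraries. Mean CPM was 677 ± 351 in control and 341 ± 30.2 in knockout cells (SD, n = 3 each), and the log2 fold change of -0.99 (SE 0.42) had an edgeR adjusted p of 0.155. Among 14 alternatives, the fit without control 3 alone called MYH9, with -1.40 (SE 0.09), the adjusted p running from 1.09e-11 to 0.352.

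**Figure D2:**
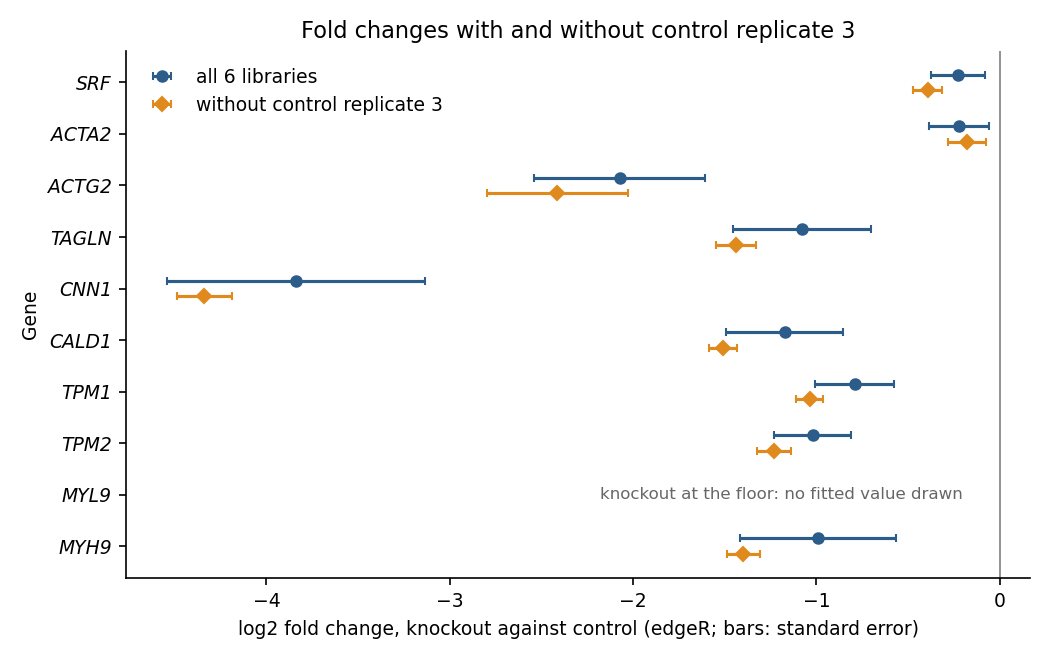
Fitted log2 fold change of knockout against control (edgeR, bars are SEs) for each gene with all 6 libraries (circles) and without control 3 (diamonds). ACTA2 and SRF sit nearest to 0, CNN1 lies lowest at -3.84 and -4.34, and the SEs shrink when control 3 is left out; MYL9 has no point because its knockout libraries are at the floor.

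On the log2 CPM scale, control 3 was nearer to the knockout mean than to the mean of controls 1 and 2 for 9 of the 10 genes, as it was for 58.9% of all tested genes. With the mean of controls 1 and 2 set to 0% and the knockout mean to 100%, it stood at 52.4% for TPM2, 54.3% for ACTG2 and 61.1% for CNN1. The corresponding values were 76.6% for TPM1, 82.6% for CALD1 and 97.4% for TAGLN. It went past the knockout mean for MYL9 (103%), MYH9 (123%) and SRF (125%). These positions are descriptions of 1 library and were not tested. FAM60A, by comparison, was higher in this library than in controls 1 and 2.

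Per kilobase of the longest transcript, levels in control cells spanned from MYH9 to ACTG2. MYH9 had 89.6 ± 46.5 CPM per kb, SRF 32.2 ± 5.70, CALD1 32.1 ± 13.3 and TPM1 23.1 ± 6.42 (SD, n = 3 each). The range of each over the control libraries overlapped that of its neighbour in the order. Within each control library, however, MYH9 was above SRF and CALD1 above TPM1, whereas SRF was above CALD1 in control 3 only. TPM2 followed with 10.8 ± 2.67 CPM per kb and ACTA2 with 4.39 ± 0.473, each clear of the next gene. The ranges of CNN1 (2.36 ± 1.58), TAGLN (1.65 ± 0.739), MYL9 (0.981 ± 0.851) and ACTG2 (0.135 ± 0.0623) overlapped those of their neighbours again. Of these, TAGLN was above MYL9 within each control library. In knockout cells MYH9 (45.1 ± 4.0 CPM per kb) and SRF (27.5 ± 1.70) still led, CALD1 (14.2 ± 0.430) and TPM1 (13.3 ± 0.712) came next, and ACTG2 (0.0316 ± 0.00593) and MYL9 (0.00556 ± 0.00257) were lowest. With the union of all exons as the length, levels in control cells were lower by more than 1.5 times for several genes, among them MYH9 (39.7 CPM per kb), CALD1 (16.4) and TPM1 (6.22). SRF was then above MYH9 in knockout cells, and MYL9 above TAGLN in control cells. On the scale of the longest transcript, MYH9, SRF, CALD1 and TPM1 led the list in both groups.

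Several of the genes belong to families whose other members are also made in these cells, and the make-up of the families differed between libraries. The other family members are named here as relatives, outside the rule for named genes. Shares were taken of the family's summed CPM per kb and were not tested. Of the tropomyosins, TPM1 made up 16.2% ± 1.17 in control and 15.5% ± 0.424 in knockout cells and TPM2 7.64% ± 1.13 and 6.16% ± 0.434 (SD, n = 3 each). TPM4 had 45.8% ± 7.70 and 31.1% ± 0.663, and TPM3 30.3% ± 5.49 and 47.3% ± 0.658. In the edgeR fit of all libraries TPM4 fell (log2 fold change -1.36, adjusted p = 0.048). That call was lost without any single library except control 3, with limma-voom and with a block for replicate number. TPM3 had a log2 fold change of -0.05 (edgeR adjusted p = 0.842). The family total, 173 CPM per kb in controls 1 and 2, was 89.5 in control 3 and 82.8 to 88.5 in the knockouts.

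Of the calponins, CNN3 accounted for 84.6% ± 0.490 in control and 96.9% ± 0.259 in knockout cells, CNN2 for 13.9% ± 1.21 and 2.97% ± 0.256, and CNN1 for 1.43% ± 0.835 and 0.118% ± 0.00452 (SD, n = 3 each). CNN2 had 4975 and 4941 counts in controls 1 and 2, 3852 in control 3, and 751, 872 and 820 in knockouts 1, 2 and 3. For CNN2 control 3 was nearer to the other controls, whereas for CNN1 it was nearer to the knockout. CNN2 fell by 2.34 on the log2 scale (SE 0.14, edgeR adjusted p = 0.0015), and all 14 alternatives called it, with adjusted p from 2.99e-36 to 0.0375.

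Among the nonmuscle myosin II heavy chains, MYH9 made up 78.2% and 79.4% in controls 1 and 2, 52.1% in control 3, and 60.8% to 62.0% in the knockouts. MYH10 had 29167 and 24996 counts in controls 1 and 2, 30163 in control 3, and 21738, 23254 and 25797 in knockouts 1, 2 and 3, a log2 fold change of -0.10 (edgeR adjusted p = 0.56). MYH14, the heavy chain of non-muscle myosin IIC, had 3343 and 3122 counts in controls 1 and 2, 2455 in control 3, and 1353, 1488 and 1622 in knockouts 1, 2 and 3. It was the one gene of these heavy chains called by edgeR with all libraries (log2 fold change -0.84, adjusted p = 0.0161), and it was also called without control 3. MYL9 was at most 0.283% of the regulatory light chains in any library. The rest was MYL12A and MYL12B, whose log2 fold changes were -0.91 and -0.74 (edgeR adjusted p = 0.1 and 0.103), and -1.24 and -1.03 without control 3, where both were called. DESeq2 called MYL12A with all libraries (adjusted p = 0.0373).

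Of the actins, ACTB and ACTG1 together made up nearly everything. ACTA2 had 0.206% ± 0.0661 of the family in control and 0.301% ± 0.0150 in knockout cells, and ACTG2 0.00591% ± 0.00211 and 0.00259% ± 0.000703 (SD, n = 3 each). ACTB, the cytoplasmic beta actin, had 276668 and 307958 counts in controls 1 and 2, 145306 in control 3, and 80377, 113736 and 91072 in knockouts 1, 2 and 3. ACTB fell by 1.20 on the log2 scale (SE 0.29, edgeR adjusted p = 0.04) and ACTG1, the cytoplasmic gamma actin, by 0.61 (SE 0.13, edgeR adjusted p = 0.0304). Both calls were kept without control 3 and lost without any other single library and with a block for replicate number. The call of ACTB was also lost with limma-voom, and that of ACTG1 without a filter. The adjusted p of ACTB and ACTG1 reached 0.167 and 0.148 over their alternatives.

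**Figure D3:**
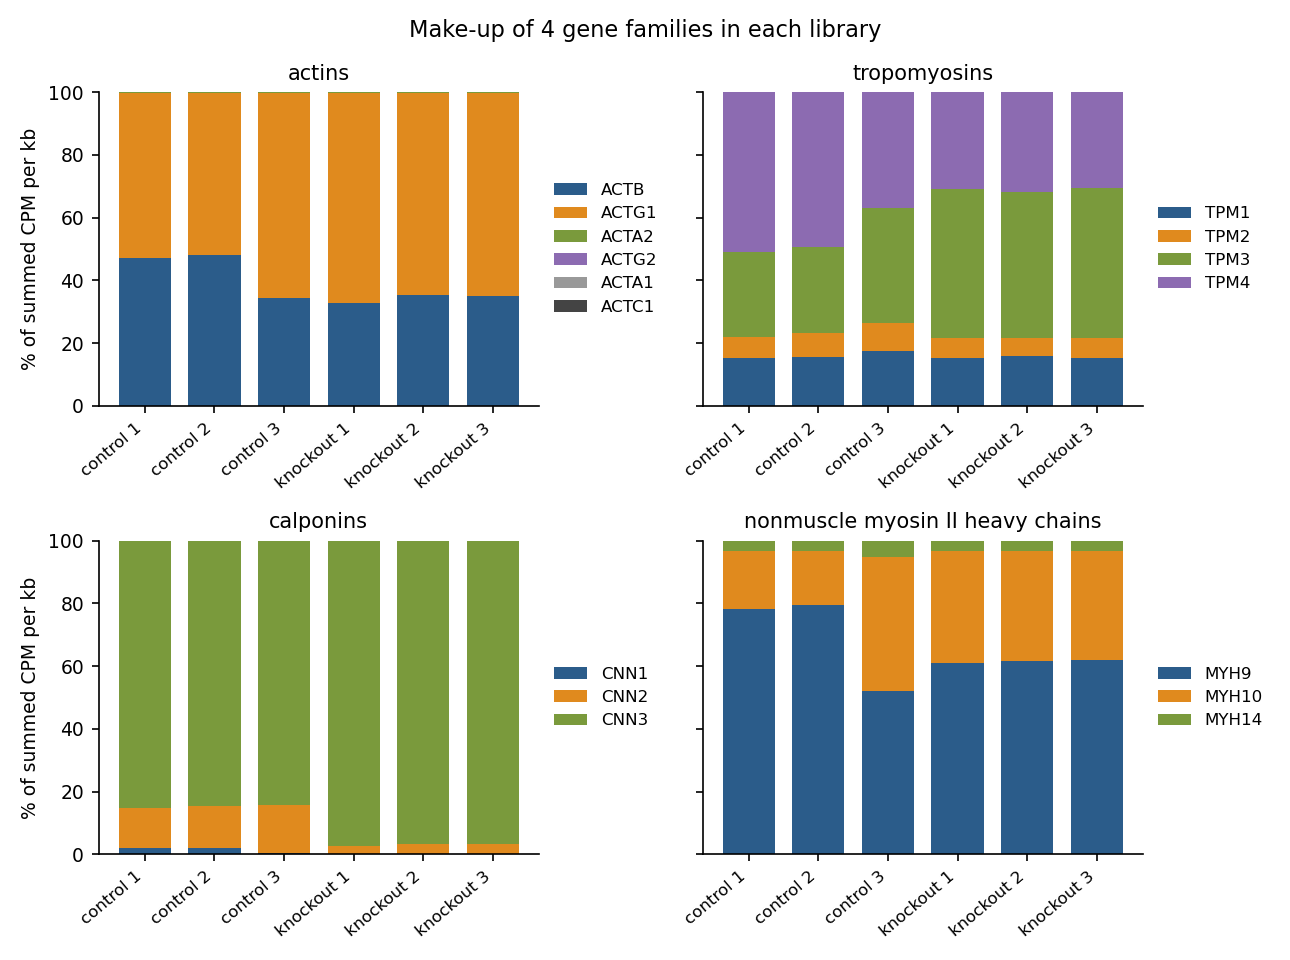
Share of each gene in the summed CPM per kilobase of its family, in percent, for the actins, tropomyosins, calponins and nonmuscle myosin II heavy chains in each of the 6 libraries. TPM3 and CNN3 take larger shares in the knockout libraries, while MYH9 takes 78.2% and 79.4% in controls 1 and 2 and 52.1% in control 3; ACTA2, ACTG2, ACTA1 and ACTC1 are too small to be seen.

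The cofactors of SRF in the myocardin family were then examined. MRTFA, the cofactor that senses monomeric actin, had 4966 and 5310 counts in controls 1 and 2, 3307 in control 3, and 2579, 3265 and 2907 in knockouts 1, 2 and 3. Control 3 was the lowest control, and in CPM it lay below knockout 2, so the groups overlapped. The log2 fold change of MRTFA was -0.48 (edgeR adjusted p = 0.137), and -0.69 without control 3, with adjusted p between 3.10e-07 and 0.352 over the alternatives. MRTFB, its relative, had a log2 fold change of 0.17 (edgeR adjusted p = 0.402) and was called in none of the alternatives, with adjusted p from 0.294 to 0.78. MYOCD, the cofactor that drives smooth muscle differentiation, had 20 and 10 counts in controls 1 and 2, 16 in control 3, and 4, 4 and 2 in knockouts 1, 2 and 3. These counts did not overlap, but they were too low for MYOCD to pass the filter with all libraries. Of the 6 alternatives that tested it, DESeq2 alone called it lower (adjusted p = 0.035), and the adjusted p of the others ran from 0.0502 to 0.141.

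Another 32 genes known as SRF targets were all tested. The list is called cytoskeletal for short, but it also holds genes of matricellular proteins and integrins. With all libraries 11 of the 32 were lower and 1 was higher, against 8.67% and 7.96% of all tested genes, with a median log2 fold change of -0.66. Without control 3, 24 were lower and 3 higher, against 33.2% and 32.4% of all tested genes, with a median of -0.92, and without any other single library, where 0.256% to 2.59% of all tested genes were lower, 1 to 3 were lower and 0 higher. ANKRD1, a stretch-responsive ankyrin repeat protein, had 8482 and 7423 counts in controls 1 and 2, 69 in control 3, and 51, 46 and 57 in knockouts 1, 2 and 3. CCN2, a matricellular protein, had 21941 and 21764 counts in controls 1 and 2, 274 in control 3, and 315, 322 and 321 in knockouts 1, 2 and 3. In both genes control 3 was at the level of the knockout, as in MYL9. ANKRD1 and CCN2 fell, with log2 fold changes of -6.54 (SE 1.59) and -5.36 (SE 1.41), at edgeR adjusted p values of 0.0398 and 0.0485. CCN1 had a log2 fold change of -2.34 that was not called with all libraries (edgeR adjusted p = 0.0959). FLNA, the actin cross-linker filamin A, had 216099 and 199332 counts in controls 1 and 2, 72328 in control 3, and 29819, 31420 and 35726 in knockouts 1, 2 and 3. No knockout library reached the lowest control, and FLNA fell by 2.18 on the log2 scale (SE 0.40, edgeR adjusted p = 0.0195). In the fit without control 3 the log2 fold changes of ANKRD1, CCN2, CCN1 and FLNA were -7.15, -5.97, -2.90 and -2.56. Their highest adjusted p over the alternatives was 0.254, 0.283, 0.294 and 0.11, and each was lowest without control 3, at 1.76e-21, 5.26e-22, 8.65e-18 and 7.17e-16.

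The 1 gene of these 32 that rose with all libraries was SVIL, which encodes the membrane-linked actin-binding protein supervillin. It had 4846 and 4026 counts in controls 1 and 2, 3598 in control 3, and 5200, 5184 and 6079 in knockouts 1, 2 and 3 (log2 fold change 0.56, SE 0.13, edgeR adjusted p = 0.0384). VCL, the focal adhesion protein vinculin, had a log2 fold change of 0.38 (edgeR adjusted p = 0.0883), and 0.24 without control 3, where it was called. MYLK, the kinase that phosphorylates the myosin regulatory light chain, had 295 and 254 counts in controls 1 and 2, 1139 in control 3, and 293, 309 and 344 in knockouts 1, 2 and 3. Control 3 alone was high, and the sign of the log2 fold change of MYLK turned with it, from -0.68 with all libraries (edgeR adjusted p = 0.45) to 0.32 without it. Over the alternatives the adjusted p ran from 0.000225 to 0.153 for SVIL, from 0.0134 to 0.245 for VCL and from 0.0257 to 0.683 for MYLK. CArG boxes were found in promoter windows of 11 of the 30 genes of this list that had one, in 2 of the 8 contractile genes and in 2 of the 10 ternary complex factor and immediate early genes with a window, against 1.60% of all genes with a window. The same windows were searched for a motif of the TEAD transcription factors. It was found in 16, 3 and 1 genes of these lists, against 16.7% of all genes with a window. A gene can have several windows. The 30 genes had 64 windows, while all 27305 genes had 35116, so shares of genes are not on equal terms. Per window, CArG boxes were found in 17.2%, 14.3% and 14.3% for the 3 lists, against 1.29% of all windows. The TEAD motif was found in 25.0%, 28.6% and 7.14% of windows, against 14.0%.

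SRF also serves, with the ternary complex factors, a set of immediate early genes that respond to growth factors rather than to actin. A list of 9 such genes and the 3 ternary complex factors ELK1, ELK3 and ELK4 was tested in full. Of these 12 genes, 0 were called lower and 1 higher with all libraries, against 8.67% and 7.96% of all tested genes. Their median log2 fold change was -0.16. DESeq2 called 1 lower and 1 higher, against 12.3% and 9.57% of the genes to which it gave an adjusted p. Without control 3, 7 were lower, ELK1 and ELK4 among them, and 2 higher, against 33.2% and 32.4% of all tested genes, and without any other single library 0 were called, near the 0.256% to 2.59% and 0.507% to 2.29% of all tested genes. FOS, a subunit of the AP-1 transcription factor, had 529 and 526 counts in controls 1 and 2, 315 in control 3, and 849, 1012 and 792 in knockouts 1, 2 and 3. FOS was above every control in every knockout library and rose with a log2 fold change of 1.11 (SE 0.25, edgeR adjusted p = 0.0312), and with one of 0.87 without control 3. EGR1, a zinc finger transcription factor, had 4262 and 4514 counts in controls 1 and 2, 336 in control 3, and 1649, 2286 and 1902 in knockouts 1, 2 and 3. Control 3 was below all other libraries for EGR1, whose log2 fold change was -0.49 with it (edgeR adjusted p = 0.702) and -1.05 without it. IER2, EGR3 and EGR2 had log2 fold changes of -0.89, -0.89 and -0.52 (edgeR adjusted p = 0.062, 0.226 and 0.281), and JUNB had one of 0.51 (edgeR adjusted p = 0.236). Over the alternatives the adjusted p ran from 3.97e-07 to 0.129 for FOS and from 3.48e-09 to 0.973 for EGR1.

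**Figure D4:**
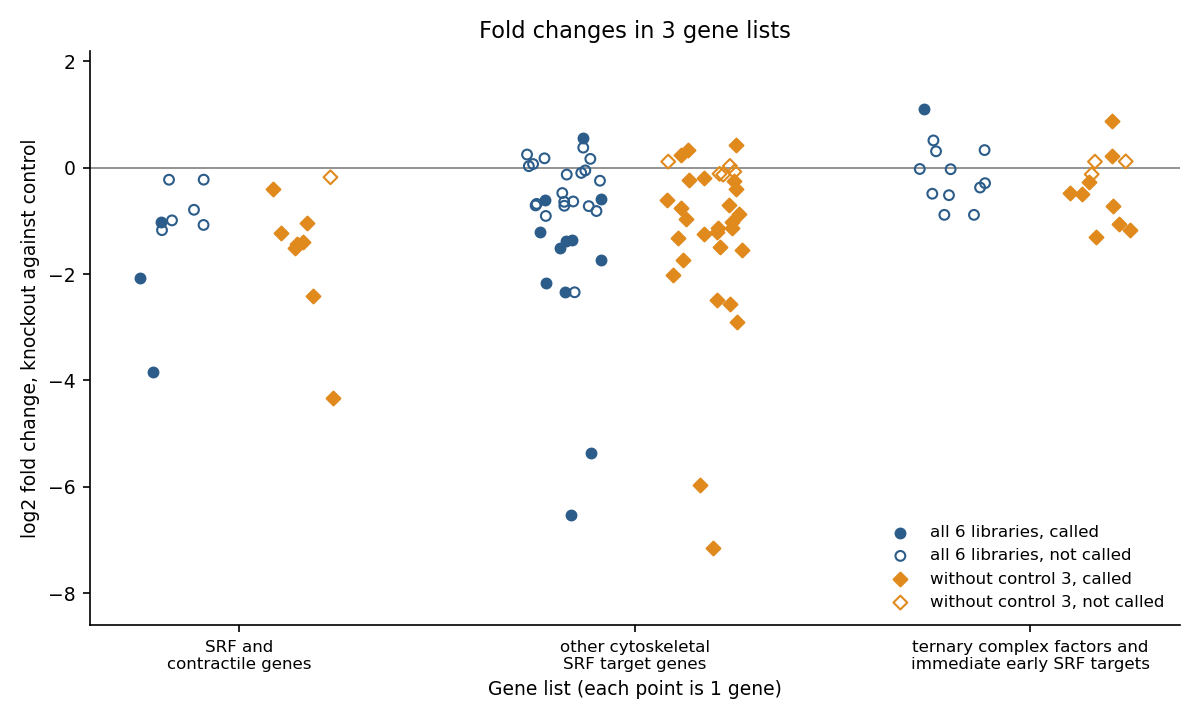
Fitted log2 fold change of knockout against control (edgeR) for each tested gene of 3 lists, with all 6 libraries (circles) and without control 3 (diamonds); filled symbols are called at an adjusted p of at most 0.05, and MYL9 is not drawn. The contractile genes and the 32 other cytoskeletal SRF targets reach to -3.84 and -6.54 with all libraries. In that fit none of the 12 genes listed as ternary complex factors or immediate early genes lies below -0.89. Without control 3, EGR3, IER2 and EGR1 of that list lie at -1.30, -1.16 and -1.05. The lists differ in size, and the difference between them was not tested.

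Markers of other cells were set beside these values. Single markers outside the rule for named genes were picked with their values in view and include each marker that edgeR called with all libraries. The 7 smooth muscle markers (MYH11, MYOCD, LMOD1, DES, SYNPO2, KCNMB1 and CASQ2) summed to 4.73, 4.36 and 7.41 CPM in controls 1, 2 and 3 and to 4.08, 4.18 and 4.30 in the knockouts, LMOD1 being the most abundant of them in each library. KCNMB1 had at most 1 count and CASQ2 at most 3 in any library, and MYH11, the smooth muscle myosin heavy chain, had 49 to 76. DES, the muscle intermediate filament protein desmin, had 124 and 130 counts in controls 1 and 2, 55 in control 3, and 16, 10 and 15 in knockouts 1, 2 and 3, and fell (log2 fold change -2.75, edgeR adjusted p = 0.0121, called in 10 of 14 alternatives). SYNPO2, the actin-bundling protein synaptopodin 2, had 30, 22 and 58 counts in controls 1, 2 and 3 and 98, 76 and 99 in the knockouts, and rose (log2 fold change 1.47, edgeR adjusted p = 0.048, called in 6 of 14 alternatives). The 8 striated muscle markers summed to 16.2, 14.0 and 7.94 CPM in controls 1, 2 and 3 and to 9.31, 7.76 and 9.45 CPM in the knockouts, most of it TTN, while MYOG and TNNT2 had at most 2 counts. None of the 8 was called by edgeR with all libraries. MYOD1 had 3, 4 and 48 counts in controls 1, 2 and 3 and 25, 55 and 22 in the knockouts, and ACTC1 had 11, 27 and 7 against 2, 3 and 0. Without control 3, edgeR called TTN lower and MYOD1 higher, and it called ACTC1 lower, as did DESeq2 with all libraries. In that edgeR fit MYOD1 and ACTC1 passed the filter through 1 group alone, so that they had to differ in order to be tested. The 8 fibroblast markers summed to 24.1 to 29.4 CPM, mostly COL1A1, with COL1A2 at no more than 2 counts and THY1 at no more than 3. Of these, COL1A1 fell (log2 fold change -0.66, edgeR adjusted p = 0.0361, called in 7 of 14 alternatives), whereas the proteoglycan gene LUM rose. DCN, another proteoglycan gene, had 0, 1 and 1 counts in controls 1, 2 and 3 and 30, 33 and 33 in the knockouts, and it passed the filter through the knockout libraries alone, so that it had to differ in order to be tested. LUM had 244, 223 and 47 counts in controls 1, 2 and 3 and 789, 642 and 727 in the knockouts (log2 fold change 2.23, edgeR adjusted p = 0.0463, called in 8 of 14 alternatives). Of 10 markers of the HEK293 line, at least 9 had more than 3 counts in each library. Their summed level moved with the contractile genes, at 1781, 1819 and 1018 CPM in controls 1, 2 and 3 and 856, 956 and 815 CPM in the knockouts, KRT8 being the most abundant, followed by VIM. INA, LHX1 and NEFM were called lower by edgeR with all libraries, and in 14, 7 and 7 of 14 alternatives. NEFL and PAX2 did not follow the sum, NEFL at 78.6, 80.7 and 143 CPM in controls 1, 2 and 3 and 83.9, 96.0 and 82.6 in the knockouts, and PAX2 at 1.48, 1.68 and 5.97 CPM against 1.95, 1.89 and 2.06. INA and NEFM were low in the knockouts but not in control 3. In controls 1, 2 and 3 INA had 38.5, 36.4 and 46.6 CPM and NEFM 1.73, 2.00 and 1.95. The share of counts from mitochondrial genes also moved with the groups, at 4.63%, 3.97% and 5.57% in controls 1, 2 and 3 and 9.15%, 8.70% and 10.1% in the knockouts. Without these genes 3 of the contractile genes were again called lower. That fit kept 20957 of the 20992 tested genes, so it could hardly have moved the calls. The part of both measures in the result was not tested. The 1820 lower and 1671 higher calls among all genes became 2668 and 1235 when library size was used without TMM factors, a scaling that moved the median log2 fold change of all tested genes to -0.12 and the number of contractile genes called from 3 to 5.

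The 10 genes lie on 10 different chromosomes, and their protein-coding neighbours on both sides were 20 genes, of which TLN1, next to TPM2, is also one of the 32 cytoskeletal targets above. Of these, 7 were called lower and 4 higher with all libraries, against 8.67% and 7.96% of all tested genes, and 10 lower and 6 higher without control 3, against 33.2% and 32.4%. The higher calls include CA9 and APOL1 and, without control 3, CH25H, which passed the filter through the knockout libraries alone and so had to differ in order to be tested. The neighbour of TPM2 was chosen after its values were seen. CA9, a hypoxia-inducible carbonic anhydrase whose gene lies 833 bases from TPM2 in the RefSeq annotation of GRCh38, had 1 and 3 counts in controls 1 and 2, 3 in control 3, and 77, 76 and 67 in knockouts 1, 2 and 3. CA9 was thus higher in each knockout library, and TPM2 lower.

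The genes most alike to SRF and MYL9 in their pattern over the 6 libraries were sought by the Euclidean distance between log2 CPM values centred on each gene's mean, where smaller is more alike. MYL9 was taken because its log2 CPM varied most among the listed genes (SD 3.54 over the 6 libraries, against 0.20 for ACTA2). Nearest to MYL9 were ANKRD1 (distance 0.638), MAP1LC3A (1.01) and CCN2 (1.03). MAP1LC3A, an autophagosome protein, had 1921 and 2380 counts in controls 1 and 2, 11 in control 3, and 9, 15 and 7 in knockouts 1, 2 and 3. Nearest to SRF were the ribosomal protein gene RPL7A (distance 0.0425), the mitochondrial malonyltransferase gene MCAT (0.0492) and the sorting nexin gene SNX11 (0.0527).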

How the data were processed

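RNA-seq was performed on 3 control and 3 FAM60A-knockout libraries. The authors deposited unnormalized integer counts for each Ensembl gene. The submitters' processing notes name STAR 2.7.10b, featureCounts 2.0.0 and hg38, whereas the study's methods describe strand-specific libraries quantified with Salmon on hg38 and the labels mention hg19. The annotation release and the use of strand in counting are not given in the sources used here. Libraries were grouped by their titles. Genes were filtered (filterByExpr, minimum count 10), TMM-normalized and tested with the two-sided quasi-likelihood F-test of edgeR 4.0.16 in R 4.3.3, with Benjamini-Hochberg adjustment over the 20992 genes tested. The fit was run on simulated counts with less spread between libraries than these data and no library set apart, which checks the code only. Depth was 88361827 to 93346824 counts per library, and counts of at most 3 were taken as the floor. CPM were scaled by TMM; log2 CPM used a prior count of 2.

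Alternatives were DESeq2 1.42.0, limma-voom (limma 3.58.1) with quantile normalization, which is closest to the methods of the study, size factors by RLE, library size alone, other filters, each library left out in turn, a block for replicate number and, chosen after seeing the data, leaving out mitochondrial genes. One gene list is not reported here. The genes and lists were chosen with earlier results of these data known. Besides the 10 genes, FAM60A, MYOCD, MRTFA, MRTFB, ACTB and ACTG1, the text names up to 4 genes per direction and list with the largest absolute log2 fold change among those called with all libraries or without control replicate 3, and the 3 genes most alike to SRF and to the gene with the largest SD. Promoter sequences and positions came from RefSeq (GRCh38.p14), and transcript lengths and overlaps from a GENCODE annotation. Python 3.11.15, numpy 2.4.6, pandas 2.3.3 and matplotlib 3.10.9 were used.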

Additional observations from a re-analysis of the deposited data

How the results depend on the processing

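The number of contractile genes called lower, 3 in the fit of all 6 libraries, was 5 without TMM factors, 7 with DESeq2, 5 without a filter and 0 with the replicate block. It ran from 0 to 9 over the fits that left out 1 library, and the 9 came without control replicate 3. Of all tested genes, 8.67% were lower in the fit of all libraries, 12.7% without TMM factors, 12.3% with DESeq2, 3.35% without a filter, 0.881% with the block and 0.256% to 33.2% without 1 library. With a change of at least 1 on the log2 scale, the 3 calls became 6 with DESeq2, 5 without a filter and 0 with the block. They ran from 0 to 8 over the fits without 1 library. Under that rule, 3.72% of all tested genes were lower with all libraries, 5.16% with DESeq2, 1.88% without a filter and 0.729% with the block. The share was 0.251% to 9.75% without 1 library. Of the 32 other cytoskeletal targets, 11 were lower, against 7 with limma-voom, 2 with the block and 1 to 24 without 1 library. Of these targets, 1 was higher, against 0 without TMM factors, 0 without a filter, 0 with the block and 0 to 3 without 1 library. Of all tested genes, 7.96% were higher with all libraries, 5.88% without TMM factors, 3.1% without a filter and 1.06% with the block. The share called higher was 0.507% to 32.4% without 1 library. With limma-voom 8.46% of all tested genes were lower and 8.71% higher. Of the 12 ternary complex factors and immediate early genes, 0 were lower, against 1 without TMM factors, 1 with DESeq2 and 0 to 7 without 1 library; 1 was higher, against 0 with limma-voom, 0 with the block and 0 to 2 without 1 library. The log2 fold change of MYLK ran from -1.03 to 0.32 over the fits without 1 library, being above 0 without control replicate 3, and that of EGR1 to 0.27 with limma-voom and 0.057 with the block. The cause of these changes was not tested. No other gene named by the rule for named genes changed direction. Of genes named outside it, LMOD1, CNN3, NEFL, PAX2 and STAMBPL1 changed sign without control 3, to 0.0025, -0.13, 0.10, 0.29 and -0.15. None of these was called with all libraries. Over the alternatives TPM3 ran from -0.23 to 0.035 and COL3A1 from -0.26 to 1.87.

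Replicate numbers gave no pairing: the deviations of same-numbered control and knockout libraries from their group means correlated at 0.01, 0.03 and -0.04, so the block fit shares a number only. Across all genes the block left 185 lower and 222 higher calls, against 1820 and 1671. At this depth the knockout counts of ACTG2 (5 to 7), MYL9 (1 to 2) and MYOCD (2 to 4) leave their fold changes imprecise.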
